A study of Homo sapiens with 6 samples.

Results

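The core genes of the circadian clock and the clock kinase gene CSNK1E were followed in MDA-MB-231, a triple-negative human breast cancer cell line, across 6 oligonucleotide arrays. The members were PER1, PER2, PER3, CRY1, CRY2, CLOCK, BMAL1, NR1D1, NR1D2 and CSNK1E, and every probe set that the platform annotation gives to 1 of these 10 genes was taken. The arrays named 13119 genes in all, and the 10 members had 17 of the 22215 probe sets that remained after controls were left out. The dinaciclib group was 3 arrays (F, 4 and 5) of cells kept for 12 h with dinaciclib, an inhibitor of several cyclin-dependent kinases that was dissolved in DMSO and put into the medium. The baseline group was 3 arrays (E, 4 and 5) of the same line at 0 h. All cells grew in RPMI with serum and antibiotics. The labels give no dose, name no solvent treatment of the baseline cells, no separate cultures, no time of day and no step that brought the cells' clocks into phase. No untreated cells were sampled at 12 h, so the drug cannot be told apart from 12 h of further time, and this matters for genes that can cycle over a day. The p-values measure the spread between these arrays, which may be technical.

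In the clock, the proteins CLOCK and BMAL1 bind E-box sequences together and switch on the PER and CRY genes. PER and CRY proteins gather and block CLOCK and BMAL1, which closes a feedback loop of about a day. REV-ERB proteins, made from NR1D1 and NR1D2, repress BMAL1 in a further loop. Casein kinase 1 epsilon, made from CSNK1E, and its close relative casein kinase 1 delta phosphorylate PER proteins and set how long they last.

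Of the 17 probe sets, 11 named a member alone, from 8 of the 10 genes. The other 6 also named a second gene. Both PER1 probe sets also carried MIR6883, a microRNA gene that lies within PER1. The 3 NR1D1 probe sets also carried THRA, a thyroid hormone receptor gene whose span overlaps that of NR1D1. A CSNK1E probe set also carried TPTEP2-CSNK1E, a readthrough transcript that includes CSNK1E. The values of these 6 are given for both names together, and they were not counted with the 11. No array gave values of its own for splice forms.

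CRY1, PER3, CLOCK, BMAL1 and CSNK1E each had a probe set past the test. The promoter windows of these genes that held a motif are shown here, and BMAL1 had no such window. Each window is the 250 bases before an annotated start in RefSeq (build GRCh38.p14), read 5′ to 3′ on the gene's own strand. They lie at chr12:107093550-107093799 (minus strand), chr1:7784041-7784290 (plus strand), chr4:55545933-55546182 (minus strand) and chr22:38318085-38318334 (minus strand). Capitals mark a match to the E-box variant CACGTT, which appears as AACGTG where the match is on the other strand, or in PER3 a match to the D-box sequence TTATGNAA.
CRY1: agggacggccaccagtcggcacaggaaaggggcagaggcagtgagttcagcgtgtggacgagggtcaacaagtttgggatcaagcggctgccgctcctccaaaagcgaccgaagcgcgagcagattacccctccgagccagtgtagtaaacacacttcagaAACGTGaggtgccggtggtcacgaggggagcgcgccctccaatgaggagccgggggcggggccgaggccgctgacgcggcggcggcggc
PER3: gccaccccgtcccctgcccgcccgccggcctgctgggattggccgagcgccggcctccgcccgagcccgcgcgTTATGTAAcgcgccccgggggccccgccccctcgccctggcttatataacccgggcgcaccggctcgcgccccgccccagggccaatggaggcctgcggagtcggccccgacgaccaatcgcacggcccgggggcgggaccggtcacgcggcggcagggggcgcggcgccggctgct
CLOCK: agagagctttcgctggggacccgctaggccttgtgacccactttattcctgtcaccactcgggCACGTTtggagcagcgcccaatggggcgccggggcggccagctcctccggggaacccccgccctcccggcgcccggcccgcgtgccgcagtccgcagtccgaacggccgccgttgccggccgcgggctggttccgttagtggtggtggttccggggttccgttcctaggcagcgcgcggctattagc
CSNK1E: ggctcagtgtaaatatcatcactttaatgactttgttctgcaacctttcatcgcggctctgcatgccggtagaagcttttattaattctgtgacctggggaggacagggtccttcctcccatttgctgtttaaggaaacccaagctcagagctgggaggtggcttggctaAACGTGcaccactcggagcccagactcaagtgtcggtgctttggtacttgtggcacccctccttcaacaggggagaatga
All 10 genes had at least 1 window in the table, 16 windows in all, and both strands were searched for 5 motifs. CACGTT was found before 6 of the 10 genes (PER2, CRY1, CRY2, CLOCK, NR1D1 and CSNK1E), and before 5.53% of all 27305 genes with a window. All genes together had 35116 windows, fewer per gene than the members, and 4.55% of these windows held CACGTT. The canonical E-box CACGTG was found before PER1 and NR1D2, 2 of the 10 genes, against 7.73% of all genes. TTATGNAA was found before PER1, PER3 and NR1D2 (3.78% of all genes), TAGGTCA, the core of the element that REV-ERB and ROR proteins bind, before CRY2 alone (2.01%), and TGACGTCA, the cyclic AMP response element, before none of the 10 (2.03%). BMAL1 had no match to any of the 5 in its 2 windows. Both the raised CRY1 and the lowered CLOCK carried CACGTT. A match describes the letters and is not evidence of binding.

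Transcripts of both activators and of PER3 fell, CRY1 rose, and CSNK1E went opposite ways on its 2 probe sets. In bulk RNA, fewer cells with a transcript and less of it per cell cannot be told apart. Changes are differences of log2(intensity + 1), dinaciclib minus baseline, tested with limma over all 22215 probe sets. Each change is followed by ± its standard error (SE). A probe set passed where the p-value, adjusted by the Benjamini-Hochberg method (BH) over all of them, was under 0.05. Of the 11 probe sets with a single gene, 2 rose, 3 fell and 6 did not pass. Over all probe sets 3.86% rose and 13.4% fell, 17.2% in either direction. Of the 6 with a second gene, 1 fell and 5 did not pass. In 4 of the 17 all dinaciclib arrays lay above all baseline arrays, and in 7 below. Over all probe sets the groups did not overlap in 36.6%, in 10.1% above and in 26.5% below. The median change of the 11 was -0.80, that of the 17 was also -0.80, and that of all probe sets was -0.21. CSNK1E was already known from earlier results of these data to be among the largest rises.

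**Figure D1:**
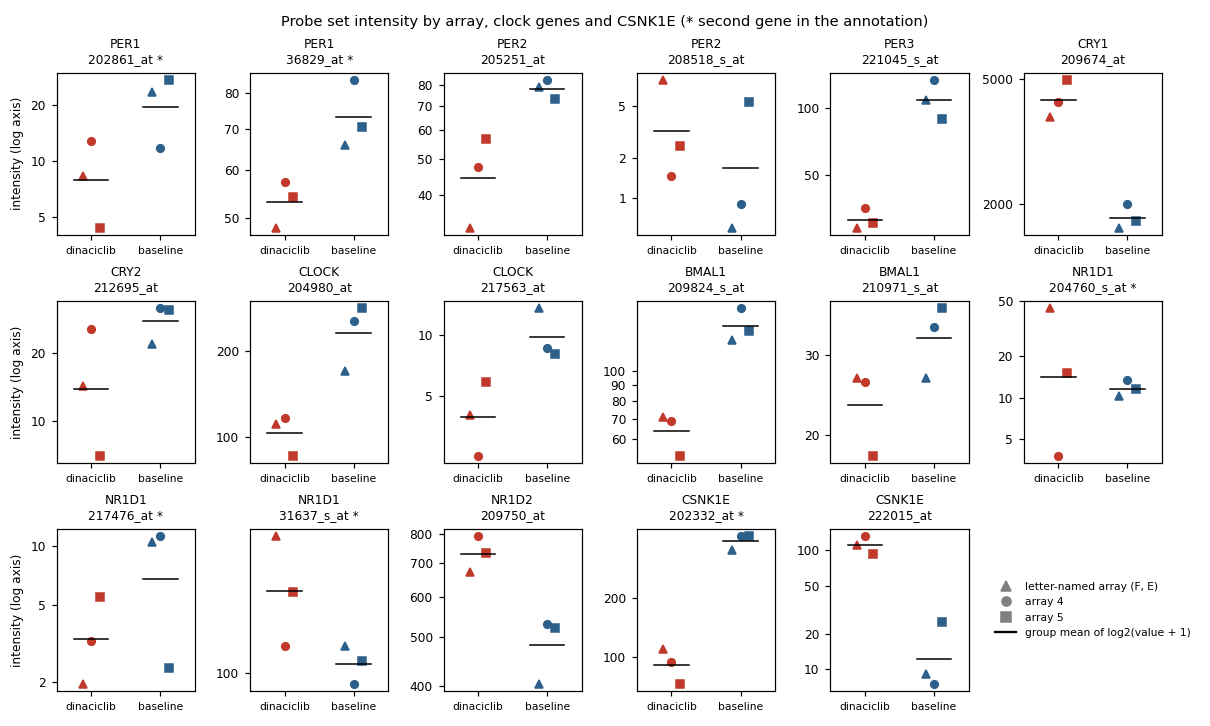
Intensity of each of the 17 probe sets on each array (log axis, a scale of its own in each panel), dinaciclib left and baseline right, with the group mean of log2(value + 1) as a bar. CRY1 sits between 3786 and 4969 in dinaciclib cells and between 1677 and 1991 at baseline, and the 2 CSNK1E panels go opposite ways.

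CSNK1E gave the widest split. Its probe set 222015_at, which names CSNK1E alone, read 111, 132 and 93.6 on the dinaciclib arrays F, 4 and 5, against 9.10, 7.59 and 25.1 on the baseline arrays E, 4 and 5. The lowest dinaciclib array was well above the highest baseline array, baseline 5. That makes a log2 change of 3.09 ± 0.45 (limma, BH-adjusted p = 0.00802).

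The other CSNK1E probe set, 202332_at, which also names the readthrough transcript, read 110, 94.6 and 73.3 on the dinaciclib arrays, against 350.5, 409 and 411 on the baseline arrays. All 3 dinaciclib arrays were dimmer than all 3 baseline arrays, so its order was the reverse of that of 222015_at. The log2 change was -2.08 ± 0.22 (limma, BH-adjusted p = 0.00444), which is 0.237 of baseline on this scale.

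The difference between the changes of the 2 CSNK1E probe sets (202332_at minus 222015_at) was -5.17 on the log2 scale ± 0.45 (limma over 14408 pairs of probe sets that share a gene, BH-adjusted p = 0.00629). With log2(value + 16) it was -4.05. Such differences passed in 5.69% of pairs, and in 0.555% the 2 probe sets also passed in opposite directions, as those of CSNK1E did. A scaling shared by a whole array cancels in this difference. The ratio of the 3-prime to the 5-prime GAPDH control probe set, a measure of RNA integrity, was 1.15 to 1.19 on dinaciclib arrays and 1.18 to 1.24 on baseline arrays. The same ratio for ACTB was 3.64 to 6.23 on dinaciclib arrays and 4.27 to 6.67 on baseline arrays. The part of RNA integrity in the CSNK1E result was not tested.

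Both CSNK1E calls and their difference held whichever array was left out, and under every scaling. Without the letter-named arrays E and F, 202332_at passed (-2.29, adjusted p = 0.0367), while 222015_at (2.91, 0.0755) and the difference (-5.19, 0.100) did not. In that fit 0 of the 14408 pairs passed, so the miss of the difference is not particular to CSNK1E. A fit with a replicate block called no probe set of the arrays. Since 222015_at was dim at baseline, its size depends on the value added before the logarithm, and log2(value + 16) gave 2.13.

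The genes whose 6 values lay nearest to each CSNK1E probe set were found by the root mean square distance of log2 values, each relative to its own baseline mean. For 222015_at these were CNTF (0.33 log2 units), STXBP6 (0.36), DOCK9 (0.38), TSC22D2 (0.40) and BCL2L11 (0.41), and 10 probe sets lay within 0.5. For 202332_at they were LARP4B (0.05), INTS5 (0.07), CEP68 (0.08), KLHL20 (0.08) and ZMYM4 (0.08), and 994 lay within 0.5. The plan named only the CSNK1E probe set with the highest mean, which over all 6 arrays was 202332_at. The search for 222015_at was added after the values were seen. The distance also holds the spread of a probe set's own arrays, whose baseline SD on the log2 scale was 0.87 for 222015_at and 0.13 for 202332_at, so the 2 counts cannot be set against each other.

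Among the repressors, CRY1, a cryptochrome that blocks CLOCK and BMAL1, was 1 of the 2 members with a probe set that rose, beside CSNK1E. It read 3786, 4227 and 4969 on dinaciclib arrays F, 4 and 5, against 1677, 1991 and 1754 on baseline arrays E, 4 and 5. The groups were well apart, with the lowest dinaciclib array above the highest baseline array. The log2 change was 1.25 ± 0.20, or 2.39-fold (limma, BH-adjusted p = 0.0110). Without baseline 5 the change was 1.23 and just missed (adjusted p = 0.0517). Its partner CRY2 read 14.3, 25.6 and 7.07 on dinaciclib arrays, against 22.0, 31.6 and 30.9 on baseline arrays, and the groups overlapped. CRY2 lay in the dimmest 40% of probe sets and did not pass (-0.95, SE 0.45, limma, BH-adjusted p = 0.215).

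PER3, a period gene that is less needed for rhythm in mice than PER1 and PER2, was the period gene that fell. It read 28.9, 35.3 and 30.4 on dinaciclib arrays, against 109, 134 and 89.6 on baseline arrays. The highest dinaciclib array, 4, was below the lowest baseline array, 5. The log2 change was -1.77 ± 0.22 (limma, BH-adjusted p = 0.00596), and it passed whichever array was left out and under every scaling. Within the 4 numbered arrays it was -1.71 and narrowly missed (adjusted p = 0.0502). The nearest genes to PER3 by the distance used above were FYCO1 (0.08), C11orf24 (0.08), MPDZ (0.12), RABGAP1L (0.12) and ZNF839 (0.13). In all, 1477 probe sets lay within 0.5 log2 units of PER3.

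PER2, a core repressor that is needed for rhythm in mice, had 2 probe sets. On 205251_at it read 32.5, 47.7 and 56.8 on dinaciclib arrays, against 79.0, 82.5 and 73.2 on baseline arrays. The groups did not overlap, yet the change of -0.80 (SE 0.25, 95% interval -1.41 to -0.19) did not pass over all probe sets (limma, BH-adjusted p = 0.0828). It passed with log2(value + 16) (-0.63, 0.0356), without dim probe sets (0.0185) and with a variance trend (0.0459). After quantile normalization it was -0.34 (0.445) and after median centring -0.35 (0.378), neither past the test. The other PER2 probe set, 208518_s_at, stayed under 8 on all 6 arrays, and its groups overlapped.

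PER1, a period gene that also responds quickly to outside signals, was measured only on probe sets that also name MIR6883. On 36829_at the values were 48.3, 57.3 and 54.1 on dinaciclib arrays, against 65.8, 84.0 and 70.3 on baseline arrays. All dinaciclib values lay below, but the change of -0.45 (SE 0.20) did not pass (limma, BH-adjusted p = 0.182). After quantile normalization it was 0.03 and after median centring 0.00018, so it had no stable direction. The second, 202861_at, was dim, with overlapping groups and a change of -1.21 (SE 0.45, limma, BH-adjusted p = 0.128).

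**Figure D2:**
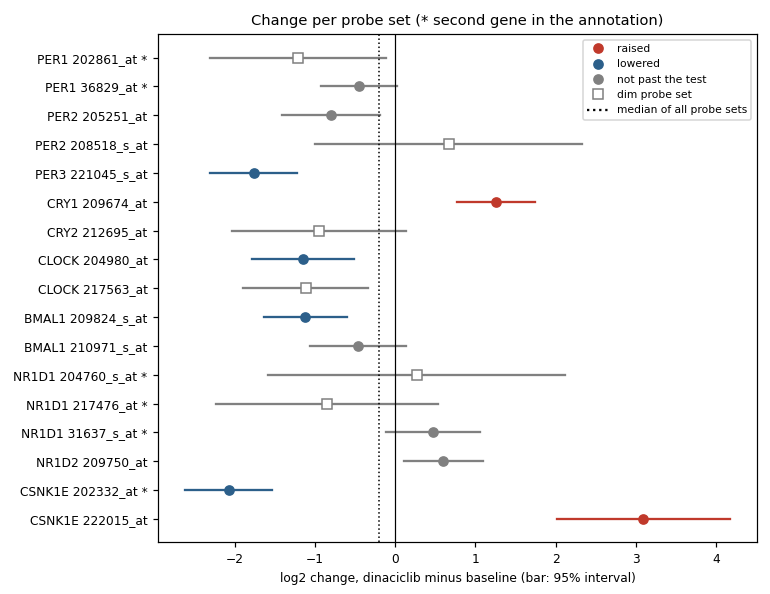
Log2 change per probe set, dinaciclib minus baseline, with 95% intervals, coloured by whether it passed, with a dotted line at the median of all probe sets (-0.21). CSNK1E holds both the largest rise (3.09) and the largest fall (-2.08) of the 17, and open squares mark the dimmest 40% of probe sets.

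Both genes of the activator pair fell on their brighter probe set. BMAL1, the partner of CLOCK, read 70.6, 69.0 and 53.0 on dinaciclib arrays for 209824_s_at, against 126, 161 and 135 on baseline arrays. The groups did not overlap, and the log2 change was -1.12 ± 0.21 (limma, BH-adjusted p = 0.0180). Its second probe set, 210971_s_at, read 26.7, 26.2 and 18.1 on dinaciclib arrays, against 26.7, 34.4 and 37.9 on baseline arrays, with overlap (-0.47, SE 0.25, limma, BH-adjusted p = 0.266). The difference between these changes was -0.65 ± 0.19 (limma over pairs, BH-adjusted p = 0.137), and it passed with log2(value + 16) (-0.66, 0.0324) and without dim probe sets (0.0269).

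CLOCK, which encodes the DNA-binding partner of BMAL1, read 111, 116 and 86.2 on dinaciclib arrays for 204980_at, against 171, 255 and 284 on baseline arrays. Baseline E was the lowest of its group and still above every dinaciclib array. The log2 change was -1.15 ± 0.27 (limma, BH-adjusted p = 0.0323). A second, dim probe set, 217563_at, read 4.03, 2.56 and 5.87 on dinaciclib arrays, against 13.5, 8.63 and 8.01 on baseline arrays. Its change of -1.12 (SE 0.32) did not pass (limma, BH-adjusted p = 0.0638). With log2(value + 16), which weighs low readings less, it was -0.37, against -1.05 for 204980_at.

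These 2 calls were less firm than those of PER3 and CSNK1E. BMAL1 was at -0.63 (adjusted p = 0.0322) after quantile normalization and -0.67 (0.0263) after median centring. BMAL1 did not pass without baseline 4 (-1.02, adjusted p = 0.0688), baseline 5 (-1.15, 0.0667), dinaciclib 4 (-1.18, 0.0530) or dinaciclib 5 (-0.99, 0.0574). CLOCK passed only without baseline E (-1.37, 0.0238) among the 6 fits that left out an array. The others gave changes between -1.23 and -1.0048, with adjusted p of 0.0707 without dinaciclib F, 0.0710 without dinaciclib 4, 0.0977 without dinaciclib 5, 0.107 without baseline 4 and 0.110 without baseline 5. After quantile normalization CLOCK was at -0.69 (adjusted p = 0.0503), and after median centring at -0.70 (0.0482).

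In the REV-ERB loop, NR1D2, which encodes REV-ERB beta, read 673, 791 and 733 on dinaciclib arrays, against 404, 530 and 520 on baseline arrays. Every dinaciclib array was brighter than every baseline array. The change of 0.60 (SE 0.20, 95% interval 0.11 to 1.09) did not pass as deposited (limma, BH-adjusted p = 0.0993). It passed after quantile normalization (0.85, 0.00718) and median centring (1.05, 0.00652), and with letter against number as a covariate (0.0428). It also passed with log2(value + 16) (0.59, 0.0309), without dim probe sets (0.0323) and with a variance trend (0.0316). NR1D2 missed after centring on spiked controls (0.52, 0.272), with 1 probe set per gene, in the numbered arrays alone and with the replicate block. It missed too whichever array was left out.

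NR1D1, which encodes REV-ERB alpha, could be read only together with THRA. The brightest of these probe sets, 31637_s_at, read 186, 113.1 and 145 on dinaciclib arrays, against 113.0, 95.1 and 105 on baseline arrays. Dinaciclib 4 and baseline E were nearly equal, and the change of 0.47 (SE 0.24) did not pass (limma, BH-adjusted p = 0.253). It was 0.94 (0.0678) after quantile normalization and 0.92 (0.0587) after median centring. The other 2 probe sets, 204760_s_at and 217476_at, were in the dimmest 40% and overlapped. On 204760_s_at dinaciclib F read 44.7, against 3.81 and 15.05 in the other dinaciclib arrays, and the change of 0.27 became -0.53 without it.

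**Figure D3:**
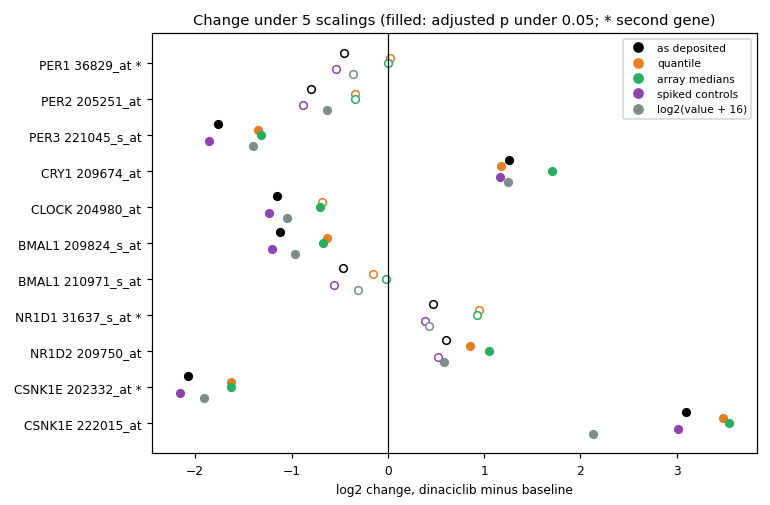
Log2 change of the 11 member probe sets outside the dimmest 40% under 5 scalings, filled where the adjusted p was under 0.05. CSNK1E, PER3, CRY1 and the brighter BMAL1 probe set keep their side of 0 and stay filled throughout, while PER1 moves to 0.03 and NR1D2 turns filled in 3 of the 4 alternatives.

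The scaling of the arrays moved the median change of all probe sets, though not every probe set alike. Median intensities were 40.6 to 46.8 on dinaciclib arrays and 53.3 to 66.2 on baseline arrays. The median change of all probe sets was -0.21 as deposited, 0.03 after quantile normalization, 0.24 after centring on array medians and -0.29 after centring on spiked controls. The share of falls among all calls was 77.6% as deposited, 52.3% after quantile normalization, 35.7% after median centring and 82.3% after centring on spiked controls. The 6 called member probe sets kept their direction under all of these, and 5 of them passed after quantile normalization, all but CLOCK. The 5-prime 18S RNA control read 1155 on dinaciclib F against 8688 and 9061 on dinaciclib 4 and 5, and 736 on baseline E against 8273 and 8642 on baseline 4 and 5. Its part in these results was not tested.

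A list of other clock genes, ordered by role, was read from probe sets that name 1 gene. It had 55 genes, of which 48 were measured, on 102 probe sets. Of these probe sets 7 rose, 19 fell and 76 did not pass, in 5 genes with a rise and 12 with a fall. That is 6.86% up and 18.6% down, against 3.86% and 13.4% of all probe sets. Their median change was -0.03, against -0.21 over all probe sets. After median centring 30 rose and 12 fell, where 15.7% of all probe sets rose and 8.72% fell. After quantile normalization 21 rose and 15 fell, where 9.59% of all rose and 10.5% fell. Of the 26 that passed, none changed direction under any setting run, and 9 passed whichever array was left out.

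NPAS2, which can take the place of CLOCK as the partner of BMAL1, fell on 4 of its 5 probe sets, and 3 of these calls held whichever array was left out, all but that of 205459_s_at (-1.14). That call also ended after quantile normalization (-0.69, adjusted p = 0.122) and median centring (-0.69, 0.105). On 213462_at it read 121, 128 and 108 on dinaciclib arrays, against 580, 678 and 709 on baseline arrays, a change of -2.45 ± 0.19 (limma, BH-adjusted p = 0.00293). On 39549_at the change was -2.52 ± 0.26. The remaining NPAS2 probe set had overlapping groups and a change of 0.40 (SE 0.53). BMAL2, a relative of BMAL1, did not pass (0.44, SE 0.22). CLOCK, BMAL1 and NPAS2 thus each had a probe set that fell.

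Of 4 further repressors, 3 were measured, on 5 probe sets, with 2 falls and 0 rises, also 0 rises at an unadjusted p under 0.05 (limma). BHLHE41 (DEC2), which competes for E-boxes, read 20.0, 18.5 and 14.0 on dinaciclib arrays, against 70.6, 105 and 70.3 on baseline arrays (-2.15, SE 0.26, limma, BH-adjusted p = 0.00527). TIMELESS, a replication fork protein with a debated part in the mammalian clock, fell on 1 of 2 probe sets (-1.07, SE 0.22). It no longer passed after quantile normalization (-0.64, adjusted p = 0.0755), after median centring (-0.62) or without baseline 4, baseline 5, dinaciclib 4 or dinaciclib 5, with changes of -1.13 to -0.93. BHLHE40 (DEC1) did not pass on either probe set (-0.26 and -1.73).

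The ROR activators, on 3 dim probe sets of RORA and RORB, had 0 calls in limma, and 0 with an unadjusted p under 0.05. Among D-box factors 1 of 9 probe sets fell, 204755_x_at of HLF (-1.58, SE 0.32), whose mean intensities were 2.16 in dinaciclib cells and 8.13 at baseline and whose other 2 probe sets had overlapping groups. That call ended with log2(value + 16) (-0.41, adjusted p = 0.0675), after median centring (-1.13), with a variance trend and without baseline 4, baseline 5, dinaciclib F or dinaciclib 4 (-1.51 to -1.37). NFIL3, which represses D-box genes, read 601, 1054 and 1393 on dinaciclib arrays, against 405, 598 and 511 on baseline arrays, just short of overlap, and did not pass (0.94, SE 0.35).

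**Figure D4:**
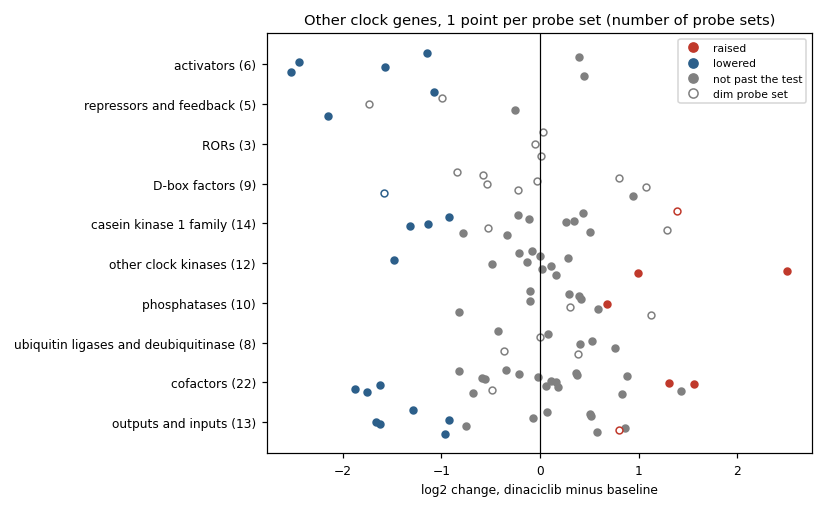
Log2 change of each of the 102 probe sets of other clock genes, dinaciclib minus baseline, by role, red where raised, blue where lowered, grey where not past the test and open where dim. NPAS2 holds the lowest points (-2.52 and -2.45) and PRKAA1 the highest (2.51).

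In the casein kinase 1 family, 14 probe sets of 4 genes gave 1 rise and 3 falls. CSNK1D, the closest relative of CSNK1E, read 138, 110 and 109 on dinaciclib arrays for 208774_at, against 227, 348 and 329 on baseline arrays, and fell (-1.32, SE 0.25, limma, BH-adjusted p = 0.0167). It also fell on 207945_s_at (-1.13, SE 0.27), while its dim remaining probe set did not pass (-0.52). Neither CSNK1D call held without baseline 4 (-1.20 and -1.04), baseline 5 (-1.24 and -1.14), dinaciclib 4 (-1.26 and -1.21) or dinaciclib 5 (-1.26 and -0.89), and that of 207945_s_at also ended without baseline E (-1.21) and after quantile normalization (-0.72), median centring (-0.68) or centring on spiked controls (-1.22). CSNK1A1, the alpha kinase, was called both ways, -0.92 on 208866_at and 1.39 on the dim 205764_at, while its 5 other probe sets lay between -0.23 and 0.44. Both CSNK1A1 calls ended in 5 of the 6 fits without 1 array, all but that without baseline E. That of 208866_at also ended after median centring (-0.47, adjusted p = 0.0768) and centring on spiked controls (-1.01, 0.0655), and was at -0.58 after quantile normalization. With log2(value + 16) the rise on 205764_at was 0.28 and did not pass (adjusted p = 0.199), nor did it with letter against number as a covariate (0.0568) or with a variance trend (0.0889). CSNK1D on 208774_at was at -0.86 after quantile normalization and after median centring, and passed in both.

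Among other clock kinases, PRKAA1, the AMP-activated kinase subunit that marks CRY1 for breakdown in mice, rose on both probe sets. On 209799_at it read 732, 883 and 833 on dinaciclib arrays, against 134, 161 and 134 on baseline arrays (2.51, SE 0.19, limma, BH-adjusted p = 0.00293). CSNK2A2, a casein kinase 2 subunit, fell (-1.48, SE 0.23). The calls of PRKAA1 on 209799_at and of CSNK2A2 held whichever array was left out, and that of PRKAA1 on 214917_at (0.99) ended without baseline 4 (1.08), baseline 5 (0.85), dinaciclib 4 (0.97) or dinaciclib 5 (0.93) and after centring on spiked controls (0.91). Of 10 phosphatase probe sets 1 rose, that of PPP2CA (0.68, SE 0.17), which lost its call whichever array was left out (0.66 to 0.73) and after centring on spiked controls (0.60), and was at 1.14 after median centring. In limma 0 of 8 probe sets of ubiquitin ligases and a deubiquitinase passed, and 1, that of FBXW7 (0.76, SE 0.28), had an unadjusted p under 0.05.

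Among cofactors, SFPQ, an RNA-binding partner of PER complexes, rose on 2 of 4 probe sets (1.56, SE 0.21, and 1.31, SE 0.25), and its other 2 lay at 0.12 and 0.16. KMT2A, a histone methyltransferase that works with CLOCK, fell on 2 of 6 (-1.62 and -1.88). Its other 4 did not pass, and of these 220546_at had every dinaciclib array above baseline (1.43, adjusted p = 0.0686) while the rest lay at -0.49 to 0.19 with overlapping groups. KDM5A fell on 1 of 2 (-1.75, SE 0.33). SFPQ on 221768_at and KMT2A on 212076_at passed whichever array was left out. SFPQ on 214016_s_at lost its call without baseline 5 (1.12), dinaciclib F (1.21) or dinaciclib 4 (1.26) and after centring on spiked controls (1.22), KMT2A on 212080_at without baseline 4 (-1.74) or 5 (-1.80), and KDM5A without baseline 4 (-1.66), baseline 5 (-1.77) or dinaciclib 4 (-1.75). Among outputs and inputs, CREB1, the factor that carries outside signals to PER1, fell on 3 of 4 probe sets, most on 204313_s_at (-1.67, SE 0.24), which alone of the 3 passed whichever array was left out. On 204314_s_at the change was -1.63 (SE 0.33). CREB1 on 204312_x_at (-0.93) also lost its call after quantile normalization (-0.44, adjusted p = 0.187), median centring (-0.47, 0.134) and centring on spiked controls (-1.01, 0.0629). NAMPT, the rhythmic enzyme of NAD synthesis, fell on 1 of 2 probe sets (-1.29, SE 0.21, or -1.26 with adjusted p = 0.0539 without baseline 5, and -0.83 after median centring). The other NAMPT probe set, 217739_s_at, had overlapping groups and a change of 0.07 (SE 0.23). Its mean intensities were 2743 in dinaciclib cells and 2626 at baseline. ID2 rose on its dim probe set (0.80, SE 0.20) but lost its call whichever array was left out, after centring on spiked controls (0.72) and with a variance trend. It was at 1.26 after median centring and 0.48 with log2(value + 16). The brighter ID2 probe set, 201565_s_at, had every dinaciclib array above every baseline array. Its change of 0.86 (SE 0.24) did not pass (limma, BH-adjusted p = 0.0582).

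VIM, CD44, MSN, CAV1, ZEB1 and EGFR were each measured outside the dimmest 40% on at least 1 probe set, with VIM at mean intensities of 8878 in dinaciclib cells and 8944 at baseline. Of their 21 probe sets 2 rose, both of CD44 (217523_at at 1.15, SE 0.22, and 216056_at at 1.09, SE 0.25), and 2 fell, both of EGFR (201983_s_at at -2.41, SE 0.37, and 201984_s_at at -1.14, SE 0.28). Luminal markers had 14 of 19 probe sets in the dimmest 40%, among them all of ESR1, PGR, CDH1 and FOXA1, and their summed intensity was 1325 to 1862 on dinaciclib arrays and 3060 to 3793 on baseline arrays. The larger part of that sum was KRT19, at 1279, 1012 and 849 on dinaciclib arrays, against 2416, 3004 and 2371 on baseline arrays. KRT19 (-1.32, SE 0.23) and ERBB2 on 216836_s_at (-1.17, SE 0.21) fell. GATA3 lay outside the dimmest 40% and did not pass, with mean intensities on 209604_s_at of 294 in dinaciclib cells and 350 at baseline. All 11 probe sets of markers of blood, endothelial and liver cells were in the dimmest 40%, and 1, 208982_at of PECAM1 (-1.57, SE 0.40), fell. The summed intensity of these 11 was 68.9 to 90.9 on dinaciclib arrays and 104 to 137 on baseline arrays. The part of these markers in the clock results was not tested.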

How the data were processed

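Total RNA of 6 samples was read on an oligonucleotide array with a single biotin label, per the labels. The authors deposited 1 linear intensity per probe set and array. The values were not log values and had unequal array medians. The step from probe brightness to these values has no description in the labels. Probe sets were named from the platform annotation, with current symbols taken by gene ID from RefSeq's GRCh38.p14 gene table. After 62 controls were left out, 19064 probe sets had 1 gene, 1043 several and 2108 none named. All 22215 were tested as log2(value + 1) in limma 3.58.1 (lmFit, then eBayes; R 4.3.3) with group alone as a term, with Benjamini-Hochberg adjustment and a threshold of 0.05. Differences between probe sets of 1 gene were fitted the same way over 14408 pairs. The dimmest 40% of probe sets had mean log2 values equal to an intensity under 22.6. The number of arrays limits the precision.

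The members and lists were chosen with earlier results of these data known. All members are named, and of the other lists the probe sets past the test with the 2 largest rises and falls, with some that missed. Alternatives were quantile normalization, centring on array medians or on 45 spiked control probe sets, letter against number as a covariate, a replicate block, the numbered arrays alone, no dim probe sets, a variance trend with robust estimation, 1 probe set per gene, log2(value + 16) and each array left out. On simulated data with 3828 changed of 22215 probe sets, 48.9% were recovered at a log2 change of 1 and 80.5% at 2, with 5.07% of calls false. With only 200 changed, 0% were recovered at 1 and 43.6% at 2, with 7.14% false. Differences were simulated with 4393 of 14408 pairs changed, more than the 820 pairs that passed in the data. Of these, 20.5% were recovered at 1, 63.3% at 2 and 86.3% at 4, with 2.77% of calls false. Recovery with fewer pairs changed was not simulated. No 2 arrays held identical values. Correlations of log2 values between arrays were 0.963 to 0.972 inside a group and 0.937 to 0.947 across groups. Plots were made in Python 3.11.15 (matplotlib 3.10.9).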

Additional observations from a re-analysis of the deposited data

How the results depend on the processing

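All alternatives were planned. With the replicate block (names 4 and 5 as blocks, 1 residual degree of freedom) limma called 0 of 22215 probe sets and 0 of 14408 pairs, though 6799 and 2361 had an unadjusted p under 0.05. So 0 member and 0 other clock probe sets rose or fell there, and CSNK1E was at -2.29 (202332_at), 2.91 (222015_at) and -5.19 (their difference). Same-numbered arrays deviated together at correlations of 0.08 and 0.08, and arrays F and E at 0.17. The numbered arrays alone gave 1 rise and 0 falls among the 11 member probe sets with a single gene (limma, with 6815 probe sets at an unadjusted p under 0.05). They gave 2 other clock rises and 11 falls, where 2.02% of all probe sets rose and 7.75% fell. CSNK1E was there at 2.91 for 222015_at and -5.19 for the difference. In that fit limma called 0 of the 14408 pairs, with 2602 at an unadjusted p under 0.05. As deposited, 7 other clock probe sets rose and 19 fell, where 3.86% and 13.4% of all probe sets did. After quantile normalization the rises and falls were 21 and 15 (9.59% and 10.5% of all probe sets). They were 30 and 12 (15.7% and 8.72%) after median centring, and 4 and 15 (2.34% and 10.9%) after centring on spiked controls. With log2(value + 16) they were 11 and 23 (5.64% and 18.1%), and with a variance trend 12 and 23 (5.81% and 18.1%). Without dim probe sets they were 13 and 23 (9.51% and 30% of all probe sets kept), from fewer than the 102 probe sets of the list. With 1 probe set per gene, which left 1 for each of the 48 genes measured, they were 2 and 8 (3.56% and 15.1%). Leaving out each array gave 1 to 2 member rises, 1 to 3 member falls, 2 to 5 other rises and 7 to 18 other falls. Of all probe sets, 1.63% to 2.83% rose and 5.6% to 12.1% fell in these fits.

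Values that turned sign, none of them past the test, were PER1 36829_at (0.026 after quantile normalization, 0.00018 after median centring), and in both the block and the numbered arrays PER2 208518_s_at (-0.25), NR1D1 204760_s_at (-0.61) and the difference of 204760_s_at and 217476_at (-0.31). Without single arrays, 204760_s_at ranged from -0.53 to 1.10 and its difference from 31637_s_at from -0.82 to 0.45. The difference of the CLOCK probe sets was 0.16 after quantile normalization and -0.46 to 0.33 without single arrays. The cause was not tested. Dim probe sets limit what can be said of CRY2, RORA, RORB, DBP, TEF and HLF.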
